A study of Mus musculus with 3 samples.

Results

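The genes described here encode steroid dehydrogenases, aldo-keto and retinol reductases and carboxylesterases: the Hsd3b, Hsd11b and Hsd17b dehydrogenases, the Akr1 and Akr7a aldo-keto reductases, the retinol dehydrogenases Rdh, the related short-chain enzymes Dhrs and the carboxylesterases Ces. They were taken by name, as the probes whose gene name on the array begins with 1 of these stems and its number or letter, and came to 62 genes with 88 probes, of 19861 named genes and 41174 probes on the array. One gene that the stems would take was not analysed here. RNA came from mPTECs, primary cells of the kidney of male mice of 1 month, named as the labels name them, either freshly isolated (day 0) or after 1 or 3 days on culture dishes. The culture medium, which the day 0 cells had not received, was DMEM/F12 with insulin, transferrin, selenium, hydrocortisone, antibiotics and 1% serum, so time on the dish and the medium cannot be told apart. The labels give no mouse strain and do not say whether animals were pooled. Each day was measured once, on 1 Cy3-labelled Agilent array, without replicates, so the differences are those between single arrays and no test was made.

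The Hsd3b, Hsd17b and Akr1c enzymes interconvert hydroxyl and keto groups on steroids and so make or remove active hormones, while Hsd11b1 regenerates active glucocorticoid from its keto form. Akr1a, Akr1b and Akr7a reductases turn aldehydes and sugars into alcohols with NADPH. Rdh and Dhrs enzymes move retinoids between retinol and retinal, the step before retinoic acid, and carboxylesterases split ester bonds in lipids and drugs. In the kidney many of these enzymes, though not all, are known from the proximal tubule, the segment that reabsorbs most of the filtrate and handles many drugs and hormones.

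A signal below is a probe's processed intensity as a multiple of the 75th percentile of its array, which was 1184, 1509 and 1515 intensity units on days 0, 1 and 3. A gene's signal is that of its brightest probe, and signals of different genes, which come from different probes, are not set against each other. All 62 genes passed the scanner's mark for a signal well above background somewhere, 61 of them on each array. Genes were counted from a 4-fold difference. Several genes with large differences, Ces1d, Akr1c21, Rdh16, Akr1c14, Akr1c18 and Akr1b8, had 1 probe each, so agreement between probes could not be checked for them. Spots of the same probe gave a ratio between arrays an SD of 0.198 on the log2 scale, or 1.15-fold. Between probes of 1 gene the log2 ratio of day 3 to day 0 had a median SD of 0.35. This covers the 19 members with several probes well above background on all 3 arrays, so dimmer probes are not in it. Relative to the 75th percentile, the median signal of an array moved by -0.21 (log2) on day 1 and -0.31 on day 3. Spike-in controls moved by -0.25 and -0.42, and the median level of 12 reference genes by 0.03 and 0.25. The median of those 12 genes' own log2 ratios to day 0 was larger, 0.46 on day 1 and 0.57 on day 3. Reference gene scaling below used the shift of the median level.

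The array reads these families through probes of 60 bases, printed here because several members are close copies of each other. The probe sequences are those of the deposited array files, with positions on mm9, and each is read from the transcript rather than from an intron. In the probes of Hsd3b2 and Hsd3b6 the capitals mark the 39 bases that cover the same stretch of both transcripts, of which 31 match (79.5%). The Hsd3b2 probe shown is 1 of 3 for that gene, and the Ces1d probe spans an intron.
Hsd3b2, chr3:98516103-98516162, minus strand: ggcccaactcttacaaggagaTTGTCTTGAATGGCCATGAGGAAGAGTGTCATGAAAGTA
Hsd3b6, chr3:98610436-98610495, minus strand: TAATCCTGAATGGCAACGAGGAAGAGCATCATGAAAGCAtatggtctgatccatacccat
Hsd3b3, chr3:98546284-98546343, minus strand: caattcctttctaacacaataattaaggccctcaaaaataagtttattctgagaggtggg
Ces1d, chr8:95693648-95694933, minus strand: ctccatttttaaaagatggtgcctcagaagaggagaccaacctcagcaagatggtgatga
Among the member probes, only 1 other pair from different genes, Akr1a1 and Akr1c12, could be aligned over at least 30 bases at 70% identity or more, with 28 of 34 matching. Only probes were aligned, each with the others and not with the transcripts of other genes. Cross-hybridisation between copies was therefore not tested for any pair.

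Of the 62 genes, 14 were at least 4-fold lower on day 1 than on day 0 and 6 at least 4-fold higher, that is 22.6% and 9.68%, against 5.15% and 3.37% of all named genes measured. On day 3, 17 were at least 4-fold lower than on day 0 and 5 at least 4-fold higher, or 27.4% and 8.06%, against 7.95% and 5.32% of all genes. From day 1 to day 3, 4 of the 61 genes measured were at least 4-fold lower and 0 at least 4-fold higher, against 1.31% and 1.62% of all genes. The members' median log2 ratio was -0.72 on day 1 and -0.67 on day 3, both against day 0, where that of all genes was -0.11 each time. Thus the share of members past 4-fold was above the background for lower signals in all 3 comparisons, and the day 1 and day 3 comparisons share the day 0 array. By 2-fold steps, 7 members were lower at both steps, 19 were lower on day 1 and then within 2-fold, and 24 stayed within 2-fold at both. Of all named genes, 13463 of 18909 were within 2-fold at the first step and 16120 of 19004 at the second, where 25 of 62 and 49 of 61 members were.

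**Figure D1:**
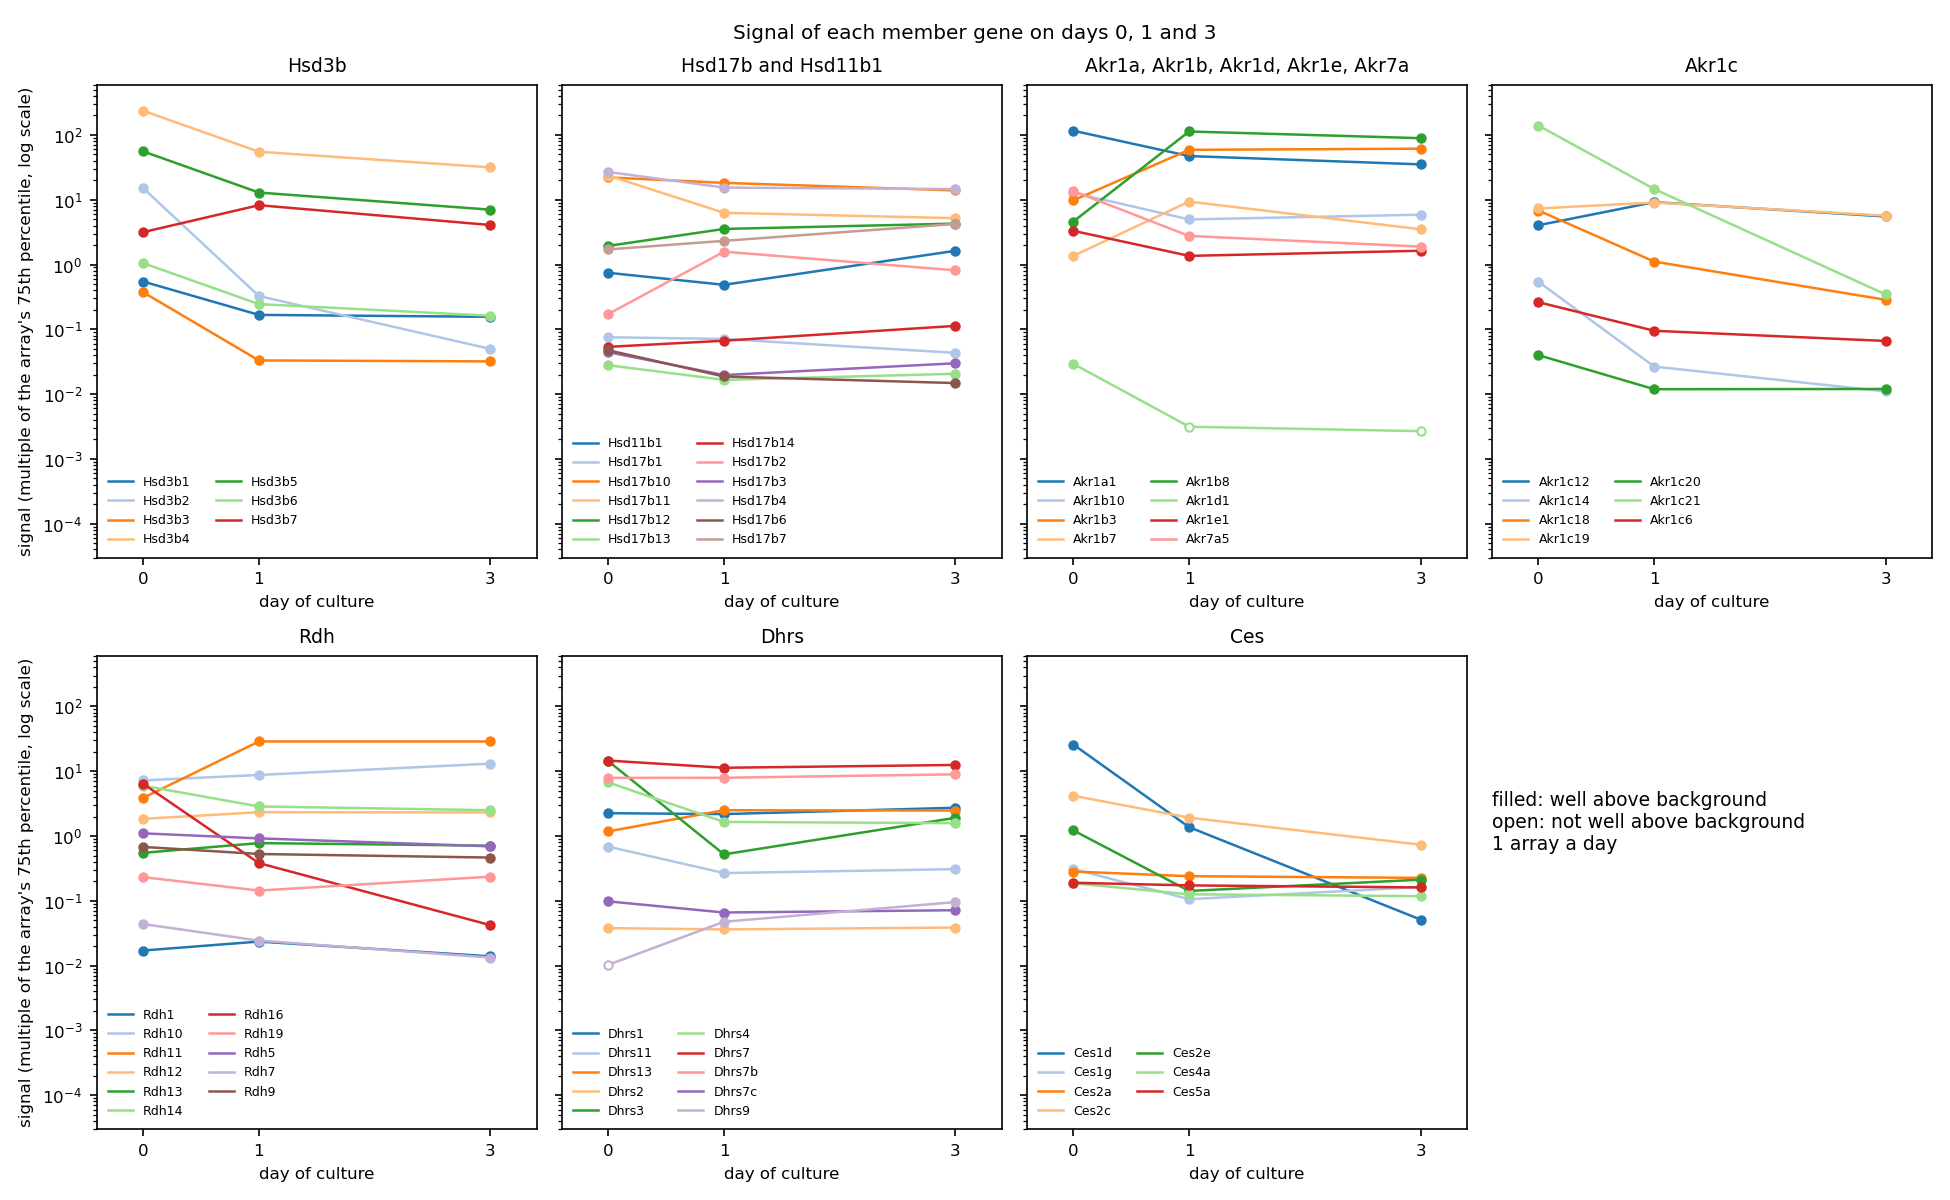
Signal of each of the 62 genes (multiple of the array's 75th percentile, log scale) against day of culture, 1 array a day, in 7 panels by family; open points were not well above background. Akr1c21 runs from 139.6 to 0.345 and Ces1d from 25.8 to 0.0513, whereas Akr1b8 runs from 4.61 to 89.1.

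The day 0 cells carried proximal tubule RNA, and its markers were lower in culture, as many of the enzymes were. All 18 proximal tubule markers were well above background on each array. Their summed signal was 1504 on day 0, 257 on day 1 and 36.1 on day 3, and 17 of 18 were at least 4-fold lower on day 3. Markers of other kidney cells were also present and moved: the summed signal on days 0, 1 and 3 was 341, 90.9 and 17.8 for 4 genes of the loop of Henle and 66.6, 7.28 and 3.07 for 7 of the distal tubule and collecting duct, of which Pvalb was not well above background on day 3. The loop sum was mostly Umod (252, 79.4 and 12.2), while Cldn16, also of the loop, ended higher (1.44, 0.534 and 2.65). Podocyte (9.02, 1.82 and 2.35 over 5 genes) and endothelial markers (21.3, 11.2 and 4.16 over 5) ended lower, whereas the sums of fibroblast (5.13, 4.16 and 10.5 over 6), macrophage (13.1, 8.98 and 15.0 over 6) and mesothelial markers (1.14, 0.713 and 18.1 over 4) ended higher. These 3 sums were mostly the signals of Col1a2 (7.91 on day 3), Lyz2 (13.4) and Msln (17.4). Of the fibroblast and the macrophage markers 3 of 6 each were lower on day 3 than on day 0, with median log2 ratios of -0.35 and 0.06, and the mesothelial marker Wt1 was lower (1.06 and 0.333 on days 0 and 3). The adrenal cortex, which makes steroids with some of these enzymes, was followed by 8 genes, whose summed signal of 23.0, 17.6 and 12.3 was mostly the widely expressed ferredoxin Fdx1 (21.6, 16.4 and 11.1). Of its defining genes, Cyp11a1 read 0.0229, 0.0257 and 0.0458, Star 0.146, 0.129 and 0.0924, and the corticotropin receptor Mc2r 0.914, 0.791 and 0.773. The part of these cell types in the results below was not tested, and in bulk RNA fewer cells of a type and less RNA per cell cannot be told apart.

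The Hsd3b genes were lower in culture in all but 1 case. These dehydrogenases act early in the making of every class of steroid hormone, although mouse Hsd3b4 and Hsd3b5 are known as ketosteroid reductases, which inactivate hormones. Of 7 genes, 5 were at least 4-fold lower on day 1 and again on day 3, and the family's median log2 ratio was -2.10 and -2.90. The 5 genes are 71.4% of the family, against 5.15% and 7.95% of all named genes on those days.
Hsd3b4, the form known from kidney, read 236 on day 0, 55.0 on day 1 and 31.6 on day 3, 7.48-fold lower on day 3 than on day 0. Hsd3b5 read 55.7, 12.9 and 7.02, and was 7.93-fold lower. Hsd3b6 read 1.05, 0.245 and 0.162, and was 6.49-fold lower.
In these 3 genes the day 0 array was high, and the larger part of the difference lay between day 0 and day 1, by 4.30-fold, 4.33-fold and 4.30-fold, all of which fell short of 4-fold with arrays centred on the median or on spike-in controls. Hsd3b3 also changed by day 1 and little after it, with 0.373, 0.0331 and 0.0320, 11.6-fold lower on day 3. Hsd3b1 read 0.546, 0.167 and 0.156, a 3.50-fold difference that does not reach 4-fold.
Hsd3b2 had the largest difference of the family but the least agreement between probes. Its brightest probe, at chr3:98515099-98515158, read 15.1, 0.326 and 0.0498, which is 46.3-fold lower on day 1 and 303-fold lower on day 3. The probe printed above read 0.603, 0.0211 and 0.0150, and the third 0.259, 0.0791 and 0.0581. All 3 probes were lower on each later day than on day 0, with log2 ratios for day 3 from -8.24 to -2.15, so the direction was shared and the size was not settled. Normexp, another background correction, which models the background and adds an offset that draws dim signals together, gave -7.41 for the brightest probe, and -2.67 in place of -3.54 for Hsd3b3.
Hsd3b7, which works on bile acid precursors rather than hormones and lies apart from the others, ran differently. It read 3.16, 8.23 and 4.07, 2.60-fold higher on day 1 and 1.29-fold higher on day 3. Day 1 was thus the high array and days 0 and 3 were close. The second Hsd3b4 probe gave -1.62 for day 3, against -2.90 for the brightest one.

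**Figure D2:**
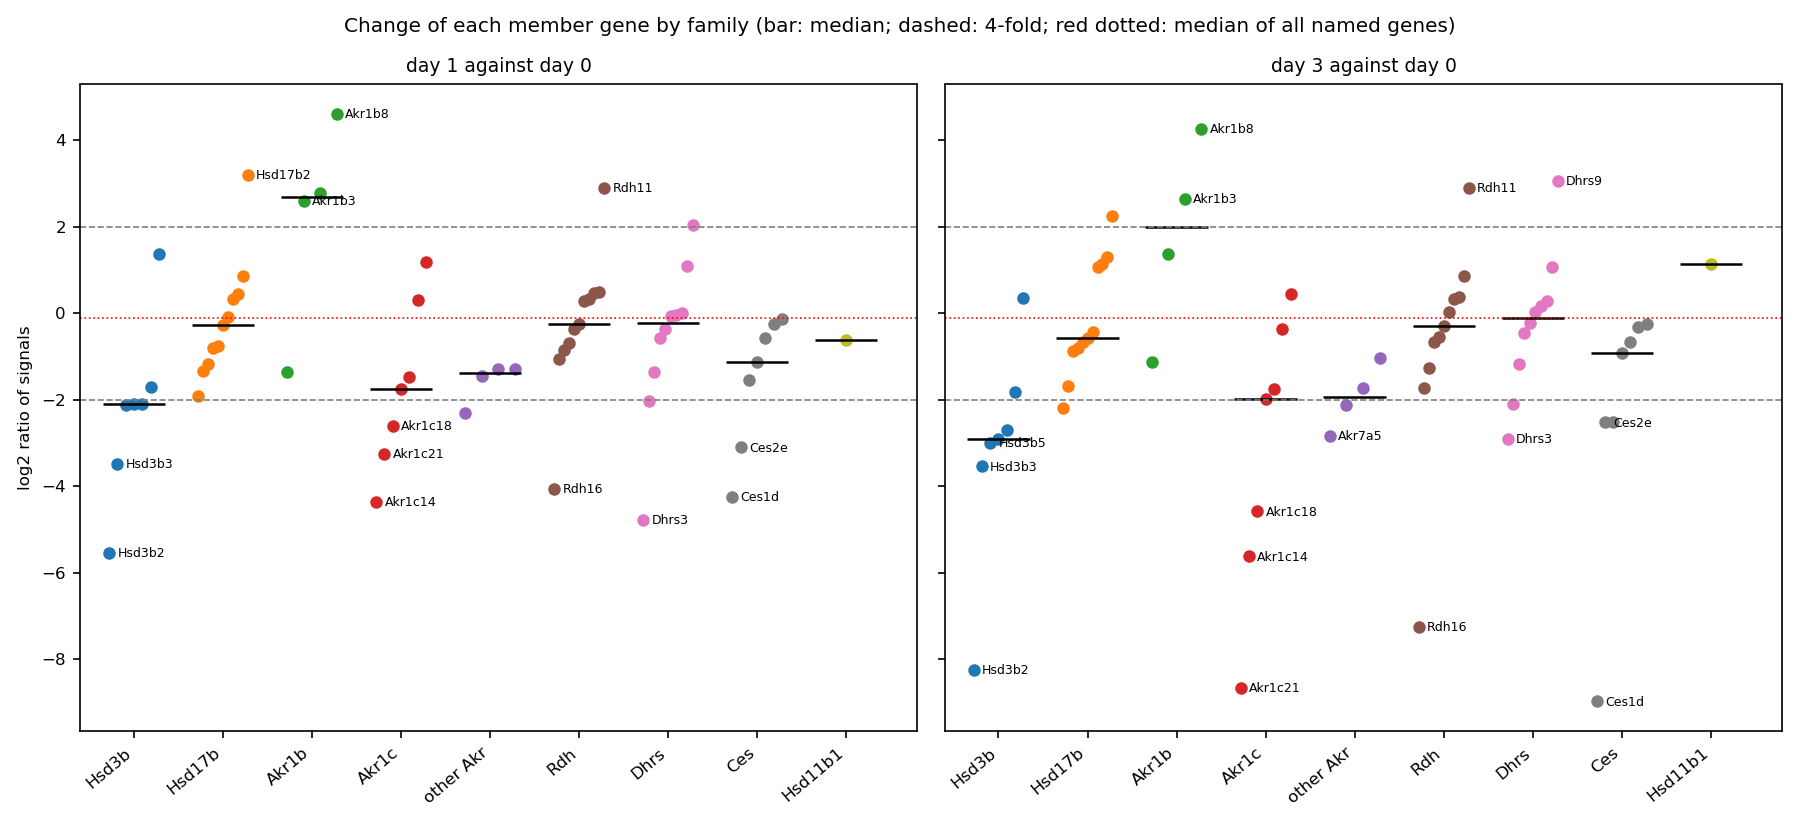
Log2 ratio of signals for each gene by family, day 1 against day 0 (left) and day 3 against day 0 (right), 1 array a day; bars are family medians, dashed lines 4-fold and the red dotted line the median of all named genes (-0.11). The Hsd3b median is -2.10 and then -2.90, that of Akr1b starts at 2.69, and Dhrs9 and Akr1d1 are drawn at their bounds.

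Hydroxysteroid dehydrogenases of the Hsd17b group were spread on both sides of their day 0 signal, 5 of 11 within 2-fold of it on day 3. These enzymes set the activity of oestrogens and androgens at a single position, but several serve fatty acid or cholesterol metabolism instead. Of 11 genes, 1 was at least 4-fold lower and 1 at least 4-fold higher on day 3, and the median log2 ratio was -0.57. That is 9.09% each way, near the 7.95% lower and 5.32% higher of all named genes.
Hsd17b2, which oxidises oestradiol and testosterone to weaker forms, read 0.172, 1.58 and 0.813, 9.16-fold higher on day 1 and 4.73-fold higher on day 3. Both culture days were above day 0 and day 1 was the highest, and the day 3 difference fell short of 4-fold with reference gene scaling or normexp. Hsd17b11, an enzyme of lipid droplets, read 23.6, 6.28 and 5.19, 4.54-fold lower on day 3. Its second probe differed by -0.50 on the log2 scale where the brightest gave -2.18, so the 4-fold difference rests on 1 probe.
Among the enzymes of lipid metabolism, Hsd17b4, the bifunctional enzyme of peroxisomal fatty acid oxidation, read 26.8, 15.4 and 14.6. Hsd17b10, a mitochondrial enzyme, read 22.1, 18.2 and 13.9. Neither reached 2-fold. Hsd17b7, a ketoreductase of cholesterol synthesis, read 1.71, 2.32 and 4.23, 2.48-fold higher on day 3, with its 2 probes at log2 ratios of 1.31 and 1.45. Hsd17b12, which serves fatty acid elongation, read 1.94, 3.54 and 4.28 by its brightest probe and 0.121, 0.0922 and 0.0468 by the other. The probes pointed opposite ways (1.14 and -1.37), and no direction is given for this gene.
Hsd17b6 read 0.0475, 0.0187 and 0.0148, 3.20-fold lower on day 3. Hsd17b14 read 0.0536, 0.0667 and 0.113, 2.11-fold higher. Both are dim, and with normexp their day 3 log2 ratios were -0.84 in place of -1.68 and 0.47 in place of 1.08. Hsd17b1, which makes oestradiol, read 0.0754, 0.0710 and 0.0433. The testis form Hsd17b3 (0.0444, 0.0197 and 0.0299) and Hsd17b13 (0.0279, 0.0166 and 0.0206) had low signals on each day and ended within 2-fold of day 0.
Hsd11b1 read 0.745, 0.486 and 1.63. It was 1.54-fold lower on day 1 and 2.18-fold higher on day 3, and the 3.35-fold difference between days 1 and 3 made it the only member that was within 2-fold at the first step and higher at the second. Hydrocortisone, which its enzyme can form, was in the culture medium of both days.

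The Akr1c genes split into 3 that were at least 4-fold lower and 4 that were not. The 3 genes are 42.9% of the group, against 7.95% of all named genes on day 3. Akr1c enzymes reduce or oxidise steroids at several positions, and Akr1c21 is known as an abundant form of the mouse kidney.
Akr1c21, probed across an intron at chr13:4583075-4585609, read 139.6, 14.6 and 0.345, 9.53-fold lower on day 1 and 405-fold lower on day 3. Akr1c14 read 0.541, 0.0266 and 0.0110, 49.2-fold lower on day 3. Akr1c18, which inactivates progesterone, read 6.81, 1.11 and 0.285, 23.9-fold lower.
All 3 were lower at each step, and for Akr1c21 the second step, 42.5-fold from day 1 to day 3, was the larger one. The fold of the dim gene Akr1c14 depended on the background correction, with a day 3 log2 ratio of -5.62 as read and -3.43 with normexp. Akr1c21 gave -8.66 and -8.46. Akr1c6 read 0.262, 0.0949 and 0.0661, 3.97-fold lower and just short of the 4-fold line. Akr1c20 read 0.0399, 0.0119 and 0.0120, 3.34-fold lower, all of it by day 1. With normexp these 2 genes gave -1.30 and -0.81.
The remaining genes of the group did not share this course. Akr1c12 read 4.04, 9.17 and 5.52, 2.27-fold higher on day 1 and 1.37-fold on day 3, with both probes higher on both days. Akr1c19 read 7.33, 9.05 and 5.67 and stayed within 2-fold.

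Of the Akr1b genes, 3 of 4 were higher on both culture days than on day 0. Akr1b3 is aldose reductase, which turns glucose into sorbitol, and its relatives reduce lipid aldehydes. Of 4 genes, 3 were at least 4-fold higher on day 1 and 2 on day 3, and the median ratio was 6.44-fold and 4.01-fold higher. Of all named genes, 3.37% and 5.32% were at least 4-fold higher on those days.
Akr1b8, at chr6:34318338-34318397, read 4.61, 113 and 89.1, 24.5-fold higher on day 1 and 19.3-fold higher on day 3. Akr1b3 read 9.78, 58.9 and 61.3, 6.03-fold and 6.27-fold higher, and its second probe gave log2 ratios of 2.90 and 2.81. Akr1b7 read 1.36, 9.36 and 3.50, 6.88-fold higher on day 1 but 2.57-fold on day 3.
Akr1b8 and Akr1b3 were thus high on both culture days, while Akr1b7 was highest on day 1. Akr1b10 ran the other way by its brightest probe, with 12.8, 4.97 and 5.87, 2.17-fold lower on day 3. Its second probe read 0.165, 0.164 and 0.104, with log2 ratios of -0.01 on day 1 and -0.67 on day 3.
The aldo-keto reductases of the other subfamilies were all lower on both culture days. Akr1a1, aldehyde reductase, which in mice also serves vitamin C synthesis, read 116, 47.2 and 35.1, 3.30-fold lower on day 3. Akr7a5, a reductase of aldehydes including those formed from aflatoxin, read 13.6, 2.76 and 1.89, 7.16-fold lower. Akr1e1 read 3.31, 1.36 and 1.63, 2.04-fold lower.
Akr1d1, the reductase of the steroid ring in bile acid synthesis, was well above background on day 0 only. It read 0.0293 on day 0 and fell below that mark on days 1 and 3, at 0.00314 and 0.00268. Taking in their place the dimmest reliable signal of each array, it was at least 2.75-fold lower on day 1 and at least 4.37-fold lower on day 3. With normexp background correction the day 3 log2 ratio was -0.89, short of 4-fold.

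**Figure D3:**
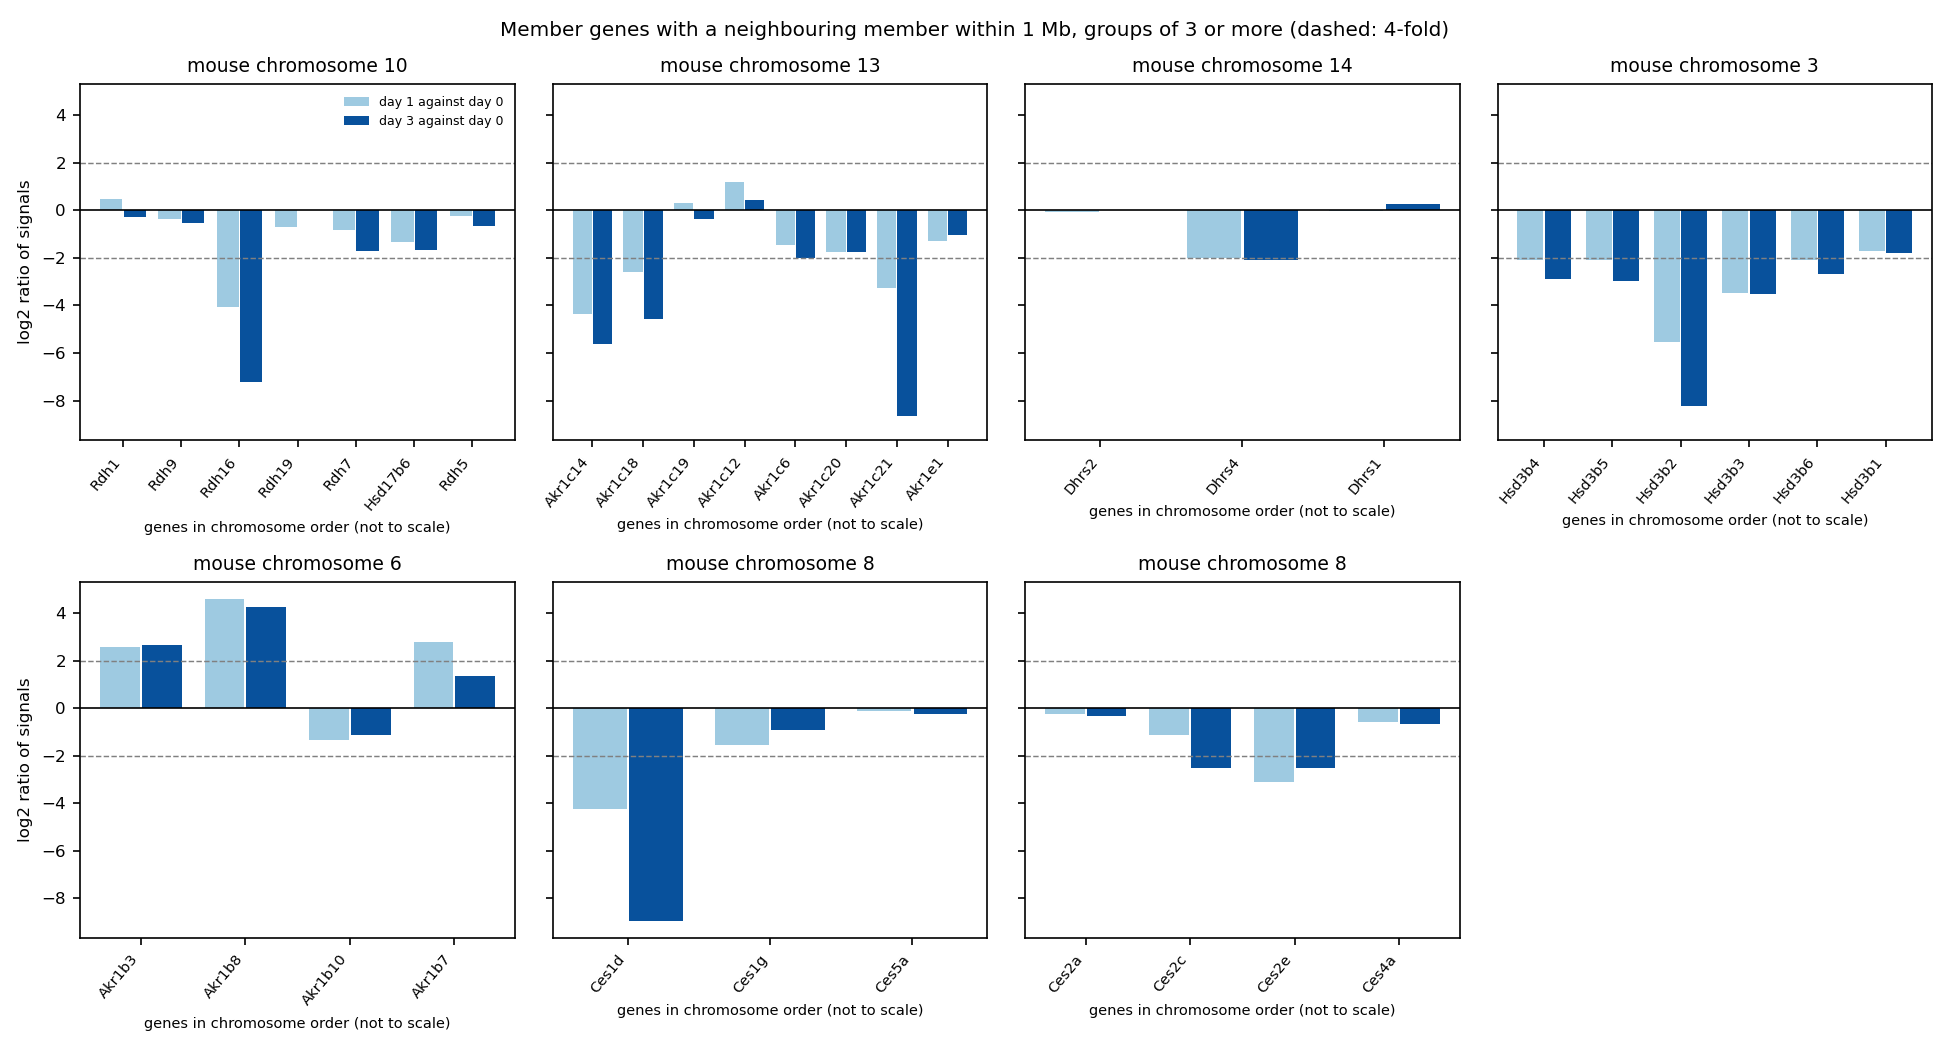
Log2 ratio of signals against day 0 for member genes in chromosome order (not to scale), in the 7 groups of at least 3 members with a neighbouring member within 1 Mb; pale bars are day 1, dark bars day 3, dashed lines 4-fold, 1 array a day. All 6 Hsd3b genes on chromosome 3 point down, whereas of the 7 members on chromosome 10 Rdh16 is past 4-fold and the others are not.

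Retinol dehydrogenases held 1 large difference in each direction. Of 11 Rdh genes, 1 was at least 4-fold lower and 1 at least 4-fold higher on day 3, with a median log2 ratio of -0.29. That is 9.09% each way, near the 7.95% lower and 5.32% higher of all named genes. Rdh16, which oxidises retinol and some steroids, read 6.38, 0.382 and 0.0421 at chr10:127252579-127252638, 16.7-fold lower on day 1 and 151-fold lower on day 3. Rdh11, which reduces retinal, read 3.88, 28.8 and 28.8, 7.44-fold higher on both culture days, and its second probe gave a log2 ratio of 3.10 on each.
Rdh16 was lower at each step, by a further 9.07-fold from day 1 to day 3, whereas Rdh11 was the same on days 1 and 3. With normexp background correction the day 3 log2 ratio of Rdh16 was -6.35 in place of -7.24. Rdh10, the main enzyme that makes retinal for retinoic acid in the embryo, read 7.22, 8.75 and 13.1, 1.82-fold higher on day 3. Rdh7 read 0.0438, 0.0243 and 0.0133, 3.29-fold lower, or -0.68 on the log2 scale with normexp in place of -1.72.
Rdh14 read 5.98, 2.86 and 2.50, 2.39-fold lower by its brightest probe, but the second probe had 0.22 on the log2 scale. The probes of Rdh13 also pointed opposite ways on day 3 (0.37 and -0.84). Rdh5, an enzyme of the visual cycle, read 1.10, 0.919 and 0.693, and Rdh12, another, read 1.84, 2.33 and 2.31. The remaining genes, Rdh1, Rdh9 and Rdh19, were within 2-fold of day 0 on both days.

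Of 10 Dhrs genes, 5 stayed within 2-fold of day 0 on day 3, 2 were at least 4-fold lower and 1 at least 4-fold higher, with a median log2 ratio of -0.10. The shares of all named genes were 7.95% lower and 5.32% higher, and 10 genes are few to set against them. Dhrs3 reduces retinal back to retinol, and its gene is known to be induced by retinoic acid. It read 14.3, 0.521 and 1.91, 27.5-fold lower on day 1 and 7.51-fold lower on day 3. The day 1 array was the lowest, and day 3 was 3.66-fold above it. Both Dhrs3 probes were lower by like amounts, at -4.78 and -4.61 on day 1 and -2.91 and -3.13 on day 3. No other member was at least 2-fold lower on day 1 and then at least 2-fold higher.
Dhrs4, a peroxisomal carbonyl and retinal reductase, read 6.71, 1.65 and 1.58, 4.24-fold lower on day 3, all of it by day 1, and under 4-fold with median or spike-in centring. Dhrs9, which oxidises retinol and steroid alcohols, did not pass the background mark on day 0 (0.0103) and read 0.0475 and 0.0956 on days 1 and 3. Against the dimmest reliable signal of day 0 it was at least 4.15-fold and at least 8.36-fold higher, and it was the only member higher by 2-fold or more at both steps. The signals are close to background, the other Dhrs9 probe passed the mark on no array, and with normexp the log2 ratios were 0.50 and 1.16.
Of the other Dhrs genes, Dhrs11 read 0.686, 0.268 and 0.308, 2.23-fold lower on day 3, and Dhrs13 read 1.18, 2.50 and 2.47, 2.10-fold higher. Dhrs7 (14.6, 11.3 and 12.5) and Dhrs7b (7.90, 7.92 and 8.96) were nearly level over the 3 arrays. So were Dhrs1 (2.25, 2.18 and 2.73) and Dhrs2 (0.0379, 0.0362 and 0.0387). Dhrs7c read 0.0980, 0.0660 and 0.0716, 1.49-fold lower on day 1 and 1.37-fold lower on day 3.

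By their brightest probes, all 7 carboxylesterases were lower on both culture days. On day 3, 3 of them were lower by at least 4-fold, and the family's median log2 ratio was -0.92. The 3 genes are 42.9% of the family, against 7.95% of all named genes. For the carboxylesterases within 1.25-fold the direction was not settled, since Ces5a turned with the scaling of the arrays on both days and Ces2a with spike-in scaling. The second Ces5a probe was also higher than on day 0, with log2 ratios of 0.11 on day 1 and 0.26 on day 3.
Ces1d, named Ces3 on the array, is a lipase of stored triacylglycerol. It read 25.8, 1.37 and 0.0513, 18.9-fold lower on day 1 and 502-fold lower on day 3. The second step alone was 26.6-fold. With normexp background correction the day 3 log2 ratio was -8.22 in place of -8.97.
Ces2e read 1.22, 0.142 and 0.212, 5.74-fold lower on day 3, and Ces2c read 4.18, 1.92 and 0.734, 5.69-fold lower. Ces2e was lowest on day 1, and Ces2c on day 3. Their second probes gave log2 ratios of -1.76 and -1.61, in the same direction and short of 4-fold. Ces1g read 0.309, 0.106 and 0.163, 1.89-fold lower on day 3. Ces4a (0.187, 0.126 and 0.118), Ces2a (0.283, 0.240 and 0.226) and Ces5a (0.190, 0.173 and 0.161) stayed within 2-fold.

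Neighbouring members did not always run together. The 6 Hsd3b genes within 353 kb of chromosome 3 (mm9) were all lower, 5 of them by at least 4-fold on day 3. In the 503 kb of chromosome 13 that hold the 7 Akr1c genes and Akr1e1, 3 of 8 were at least 4-fold lower, and Akr1c19 and Akr1c12, which lie between lower genes, were within 2-fold. The 4 Akr1b genes lie within 119 kb of chromosome 6, where Akr1b8 at 19.3-fold higher and Akr1b10 at 2.17-fold lower by its brightest probe are next to each other. On chromosome 10, Rdh16 was 151-fold lower while its neighbours Rdh9 and Rdh19 read 1.46-fold lower and 1.02-fold higher. Rdh16f2, a relative under another array name, lies in the same stretch (chr10:127314281-127314340), between Rdh19 and Rdh7, and was 296-fold lower. Rdh11 and Rdh12, 48.2 kb apart on chromosome 12, differed likewise (7.44-fold and 1.26-fold higher).

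**Figure D4:**
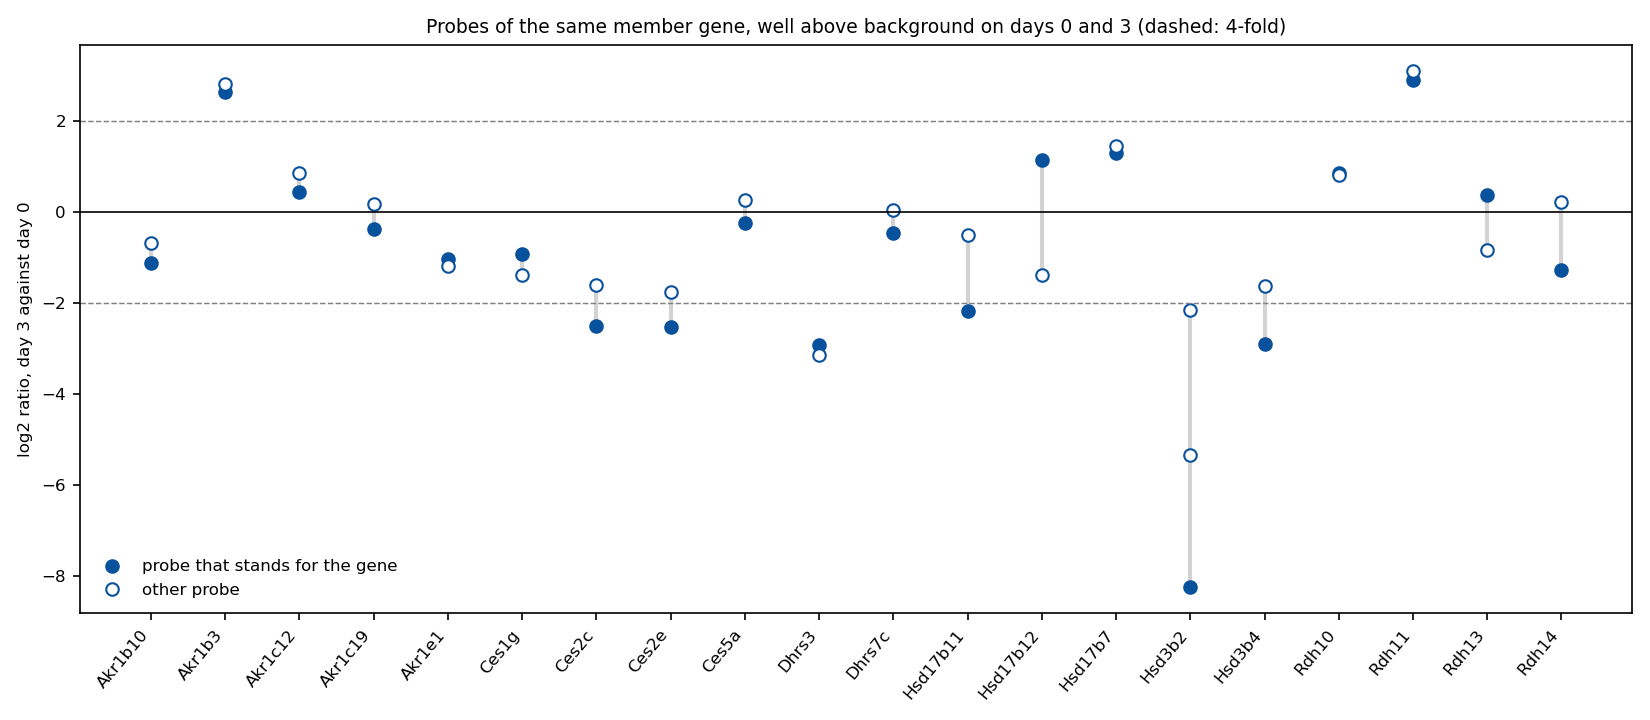
Log2 ratio for day 3 against day 0 of each probe of the member genes that have several probes well above background on both arrays; filled points stand for the gene in the text, open points are its other probes, grey lines join probes of a gene, dashed lines are 4-fold. The probes of Hsd3b2 run from -8.24 to -2.15 and those of Hsd17b12 lie on opposite sides of 0.

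Stretches before the start of 5 of the lower genes are printed next, because members that moved together can be compared for letters they share. They come from RefSeq on GRCm38.p6, which held windows from 250 bases before to 50 after the start for 51 of the 62 genes (58 windows, since some genes have several starts). Each line gives the 200 bases before the start. Capitals mark matches on either strand to the core site of Hnf1 (GTTAAT) or, allowing 1 mismatch, the site of Hnf4 (CAAAGTCCA), transcription factors known from the proximal tubule. The antioxidant response element (TGACNNNGC), known from genes of the oxidative stress response, was searched too.
Akr1c21, chr13:4573875-4574074, plus strand: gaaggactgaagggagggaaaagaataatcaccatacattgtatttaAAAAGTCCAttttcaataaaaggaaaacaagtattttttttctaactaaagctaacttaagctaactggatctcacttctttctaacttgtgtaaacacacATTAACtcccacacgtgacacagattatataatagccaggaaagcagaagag
Rdh16, chr10:127800953-127801152, plus strand: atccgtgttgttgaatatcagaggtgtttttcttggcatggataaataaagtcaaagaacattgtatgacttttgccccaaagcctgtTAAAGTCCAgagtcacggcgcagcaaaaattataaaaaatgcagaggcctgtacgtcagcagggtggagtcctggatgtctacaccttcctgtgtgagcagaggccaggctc
Hsd3b4, chr3:98510568-98510767, minus strand: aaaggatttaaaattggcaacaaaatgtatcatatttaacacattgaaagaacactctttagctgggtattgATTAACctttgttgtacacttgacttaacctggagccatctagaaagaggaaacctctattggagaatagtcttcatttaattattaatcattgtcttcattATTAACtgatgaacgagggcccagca
Hsd3b5, chr3:98645535-98645734, minus strand: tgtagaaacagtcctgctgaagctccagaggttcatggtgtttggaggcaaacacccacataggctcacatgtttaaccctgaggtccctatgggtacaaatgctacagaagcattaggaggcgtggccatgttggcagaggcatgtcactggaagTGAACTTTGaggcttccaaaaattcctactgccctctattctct
Hsd3b2, chr3:98724544-98724743, minus strand: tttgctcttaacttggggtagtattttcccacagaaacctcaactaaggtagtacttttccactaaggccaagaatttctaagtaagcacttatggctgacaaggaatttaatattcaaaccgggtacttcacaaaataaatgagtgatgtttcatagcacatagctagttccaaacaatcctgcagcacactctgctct
Akr1c21 held both motifs, the Hnf4 match 153 bases and the Hnf1 match 52 bases before the start. Rdh16 held an Hnf4 match at 112 bases and Hsd3b5 one at 44, Hsd3b4 held 2 Hnf1 matches at 128 and 26, and Hsd3b2, with the largest difference in its family, held none in these 200 bases. Over whole windows, the Hnf1 core was present in 4 of the 16 matched genes that were at least 4-fold lower on day 3 (25.0%: Akr1c21, Dhrs3, Hsd3b4 and Hsd3b6), in 11.8% of the matched members and in 8.24% of all 27025 genes. The Hnf4 site with up to 1 mismatch was in 6 of those 16 (37.5%: Akr1c14, Akr1c21, Dhrs3, Hsd3b3, Hsd3b5 and Rdh16), in 17.6% of members and 9.64% of all genes. Its exact form was in Hsd3b3 alone among the members and in 0.555% of all genes. Outside those 16, the members with the Hnf1 core were Akr1b8, which was higher in culture, and Ces5a. Those with the Hnf4 site at 1 mismatch were Akr1e1, Hsd17b6 and Hsd3b1. The antioxidant element was in 0 of the 16, in 11.8% of members and in 14.0% of all genes. No motif overlapped another in the printed lines, genes with several starts had several chances of a match, and a match of letters is a description of the window only.

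The array lists some genes of the same families under other names. Of 10 such genes, 6 were at least 4-fold lower on day 3 and 0 at least 4-fold higher. They were Rdh16f2 (296-fold), Ces1e (149-fold), Ces1f (83.9-fold), Ces1c (11.5-fold), Ces2g (8.87-fold) and Ces2b (5.93-fold). The probes of Ces1c disagreed, with day 3 log2 ratios of -3.52 and 0.52, so its place among the 6 rests on its brightest probe. Beside them Ces2f, Ces1b and Ces3b were lower by 3.35-fold, 2.12-fold and 2.02-fold on day 3. The 3 probes of Akr1cl pointed both ways, from -0.36 to 1.28, and no direction is given for it. Among other enzymes of drug and steroid handling, 28 of 79 measured Cyp genes were at least 4-fold lower on day 3 and 2 at least 4-fold higher, and 16 of 46 Gst, Ugt and Sult genes were lower and 0 higher. These are 35.4% lower and 2.53% higher for Cyp, and 34.8% lower for Gst, Ugt and Sult, against 7.95% and 5.32% of all named genes.

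Genes that work beside the members were read from wider lists. Of all named genes, 7.95% were at least 4-fold lower on day 3 and 5.32% at least 4-fold higher. Of 15 measured genes of steroid synthesis and reduction, 1 was at least 4-fold lower and 1 at least 4-fold higher on day 3. That is 6.67% each way, near the shares of all genes. The 2 genes were the paired isoenzymes that turn testosterone into dihydrotestosterone. Srd5a1 read 1.25, 15.6 and 28.6, 22.8-fold higher on day 3 (log2 4.51), while its second probe gave 2.18. Srd5a2 read 0.137, 0.0308 and 0.0285, 4.83-fold lower. None of the 7 steroid receptor genes reached 4-fold on day 3.
Of 27 measured genes of retinoid handling, 6 (22.2%) were at least 4-fold lower and 2 (7.41%) at least 4-fold higher. Aldh8a1, an oxidase of retinal, read 19.6, 0.861 and 0.180, 109-fold lower. Lrat, which esterifies retinol for storage, read 0.263, 0.0149 and 0.0141, 18.6-fold lower, and Stra6, the receptor for the retinol carrier protein, read 2.90, 1.42 and 0.233, 12.5-fold lower.
Retsat, Bco2 and Cyp26b1, which degrades retinoic acid, were lower by 10.6-fold, 7.87-fold and 7.85-fold. Aldh1a2, which makes retinoic acid, read 0.369, 0.741 and 4.20, 11.4-fold higher. Adh7, an alcohol dehydrogenase, read 0.0119, 0.207 and 0.169, 14.2-fold higher on day 3. Its day 0 signal was not well above background, so the size for this gene is not settled.
Of 24 other carbonyl reductases and short-chain dehydrogenases, 7 (29.2%) were at least 4-fold lower and 1 (4.17%) at least 4-fold higher on day 3. The lower ones were Dcxr (13.7-fold), Bdh2 (10.8-fold), Pecr (9.38-fold), Decr1 (7.53-fold), Hpgd (7.18-fold), Decr2 (4.97-fold) and Qdpr (4.38-fold). The 3 probes of Dcxr ranged from -4.22 to 0.01 on the log2 scale, so the size for this gene is not settled. Ptgr1, which inactivates prostaglandins and leukotrienes, read 2.13, 18.4 and 19.1, 8.96-fold higher, and the carbonyl reductase Cbr3 read 5.16, 46.7 and 17.4, 9.05-fold higher on day 1 and 3.37-fold on day 3.
Of 26 other ester and epoxide hydrolases, 8 (30.8%) were at least 4-fold lower and 1 (3.85%) at least 4-fold higher on day 3. The thioesterases Acot12 (67.1-fold), Acot4 (26.1-fold), Acot1 (23.2-fold) and Acot3 (8.20-fold) were lower, as were Aadac (65.5-fold), Ephx2 (8.86-fold), Mgll (7.76-fold) and Lipa (6.24-fold). The second Acot4 probe gave a log2 ratio of -1.29 where the brightest gave -4.71. Acot7, a thioesterase too, read 2.31, 8.83 and 13.6, 5.90-fold higher.

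**Figure D5:**
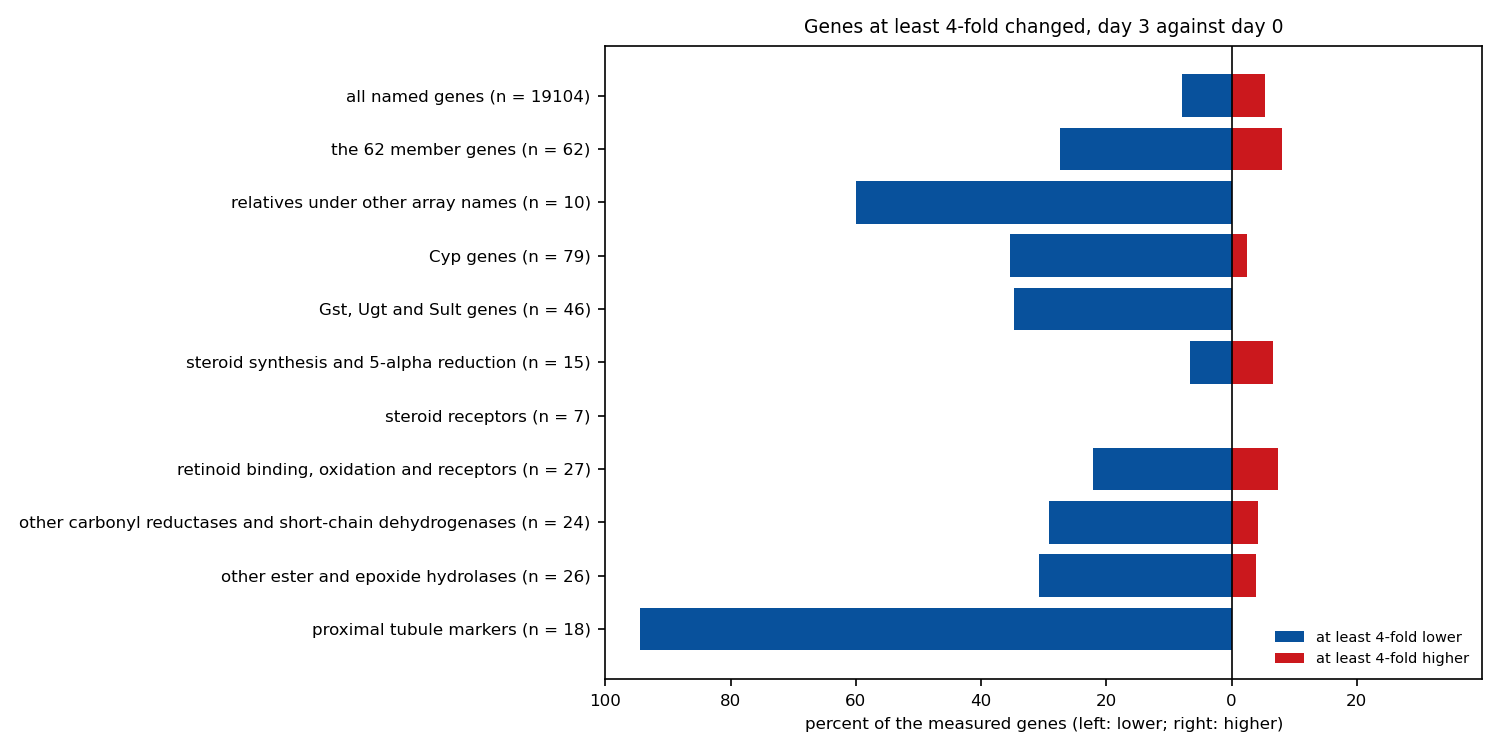
Percent of the measured genes of each list that were at least 4-fold lower (left, blue) or higher (right, red) on day 3 than on day 0, 1 array a day. The 62 members stand at 27.4% and 8.06% where all named genes stand at 7.95% and 5.32%, and the proximal tubule markers at 94.4% lower.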

How the data were processed

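Total RNA was amplified, labelled with Cy3 and hybridised to Agilent mouse 1-colour arrays, per the labels' protocols. Spots were read with Feature Extraction, version 10.5.1.1 per the file headers and 9.1 per the submitters' processing notes. The deposited processed signal is an intensity, background-subtracted and detrended within its array. The headers record that the multiplicative trend correction left no fit on the day 3 array. Other deposited columns are flags of other kind, set to 0 or 1. The authors' value table holds a ratio, the signal over the array's 75th percentile, which the scanner files bore out to 0.001 for all 43379 values an array.

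Signals were divided by the 75th percentile of non-control spots. Spots with outlier flags were left out, which removed 1 probe of Rdh10, and spots of a probe were averaged. Probes were named through the RefSeq gene table of GRCm38.p6, 73 by accession, 14 by symbol and 1 by synonym, and 8 genes changed name. The probe with the highest mean stood for a gene, and a comparison needed 1 of its arrays to be well above background. Where the other was not, the ratio is a bound against the array's dimmest signal flagged as reliable: 0.0114, 0.0106 and 0.00669. A signal that was not well above background but brighter than that was used as read. With 1 array a day the number of arrays limits the precision. All 3 arrays lay on 1 slide. Members and lists were chosen with earlier results of these data known. All members well above background could be named. Values on each day were printed for the largest changes in each family, members past 4-fold higher, members that reversed, probes that disagreed and pathway genes past 4-fold, and further members were given to account for all. Cbr3 was named for its day 1 ratio. The steps were tested on simulated data. Alternatives were 4 other scalings, normexp (limma 3.58.1, offset 50), other rules for probes and dim signals, a 2-fold threshold and the authors' table. Work used Python 3.11.15 and R 4.3.3.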

Additional observations from a re-analysis of the deposited data

How the results depend on the processing

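The counts of members past 4-fold kept within 1.5 times of the stated ones for lower signals under every scaling, background correction and probe rule tried, while the medians moved with the scaling. Against day 0, the members' median log2 ratio for day 1 was -0.51 with arrays centred on the median and -0.47 with spike-in scaling. For day 3 it was -0.36, -0.25 and, with reference gene scaling, -0.92. For day 3 against day 1 it was -0.32 with reference gene scaling. Normexp left 3 members at least 4-fold higher on day 3, without Dhrs9 and Hsd17b2. Spike-in scaling gave 1 member, Dhrs3, at least 4-fold higher from day 1 to day 3. At a 2-fold threshold, 28 members were lower and 9 higher on day 1, 27 lower and 11 higher on day 3, and 9 lower and 3 higher from day 1 to day 3. Many other genes pass that threshold too. Within 2-fold were 13463 of 18909 named genes on day 1, 11811 of 19104 on day 3 and 16120 of 19004 from day 1 to day 3.

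Centring on the median or spike-in controls took Dhrs4, Hsd3b4, Hsd3b5 and Hsd3b6 below 4-fold on day 1, and Akr1d1, Dhrs4 and Hsd17b11 on day 3. Reference gene scaling did so for Hsd17b2 on day 3. With the mean of a gene's probes, Hsd3b4 fell short on day 1, Hsd17b11 on day 3, Hsd3b2 from day 1 to day 3, and Dhrs9 on both days. Over all named genes, the share of higher among calls on day 3 went from 40.1% to 55.9% (median), 61.5% (spike-in) and 29.1% (reference genes), and for the members from 22.7% to 26.3%, 26.3% and 17.4%. On day 1 the share over all genes went from 39.6% to 51.7% and 53.9% with median and spike-in centring. No ratio of a named member past 4-fold changed sign under any alternative. Depth limits the dim members: with normexp the day 3 log2 ratio of Akr1c20 was -0.81 in place of -1.74. No paired analysis was possible because each day has 1 array.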
